A study of Mus musculus with 2 samples.

Results

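Long noncoding RNA (lncRNA) genes that start far from any protein-coding gene are described here by the state of their promoters in mouse ovary. A gene was taken as stand-alone when it is of GENCODE type lincRNA, antisense, processed_transcript or lncRNA and all of its transcription starts lie over 5 kb from every protein-coding start. Its promoter was called open when a peak of DNase I cutting lay within 500 bp of a start in both libraries. The genes were thus selected on measured peaks. By this rule 1051 of 6828 stand-alone lncRNA genes were chosen, among 31541 lncRNA and protein-coding genes in all. The selected genes comprised 742 of 5134 lincRNA genes, 184 of 1336 antisense genes and 125 of 358 processed_transcript genes. No gene carried the type lncRNA in this annotation.

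The libraries are DNase-seq of whole ovary from 2 female mice of 36 days, 1 library per animal, in 1 group with no treatment. The labels give the libraries separate biosample entries and number the females separately, but the same donor entry, which was read here as the strain. If it marked 1 animal, the SD would measure technical spread. Both animals were B6CASTF1/J, the F1 hybrid of a C57BL/6J and a CAST parent, and the files do not separate the parental alleles. DNase I cuts DNA that nucleosomes leave free, so a peak of cuts marks an open site. A footprint is a short run of bases within such a site that was cut less than its surroundings, as under a bound protein. As a check of the tissue label, all 6 granulosa markers (Foxl2, Amh, Inha, Fshr, Nr5a2 and Esr2), 4 of 5 theca and luteal markers and 3 of 3 stroma markers had a peak in both libraries. So did all 3 oviduct markers, 1 of 3 endothelial markers, 1 of 4 oocyte markers and 0 of 4 blood markers. The part of oviduct or other tissue in the results below was not tested. In whole tissue, fewer cells with an open site and less cutting per cell cannot be told apart, and a promoter without a peak can be open in a rare cell type. With 1 group of 2 animals no test between conditions exists, so shares and medians are set beside those of other genes and no p-value is given.

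An lncRNA gene is transcribed by RNA polymerase II from a promoter of its own, and its product acts as RNA or through the act of transcription. Many annotated lncRNAs begin beside a coding gene and share its nucleosome-free region. The rule used here was meant to leave such starts out, by GENCODE coding starts alone. Open promoters fall broadly into those within CpG islands, which are open in most tissues, and those poor in CpG, which tend to be open in particular cell types. Among the genes here are hosts of small nucleolar RNAs (snoRNAs), the nuclear RNAs Malat1 and Neat1, the RNAs of X inactivation and several RNAs of imprinted domains.

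Promoters of several of these kinds are shown as RefSeq sequence on GRCm38.p6, on the strand of the gene. They run from 250 bases before to 50 bases after the RefSeq start. None of them has an observed over expected CpG ratio up to 0.4 or a mean value under 1. Promoters poorest in CpG and those of low value are therefore not represented. Capitals mark bases that lay inside a footprint in both libraries, whether or not the footprint lay in a promoter peak. The snoRNA hosts Snhg8 (chr3:123508287-123508586, minus strand) and Snhg15 (chr11:6528711-6529010, minus strand) represent the CpG-rich promoters. Malat1 (chr19:5802623-5802922, minus strand) is an open promoter of lower CpG content than these. Gm15408 (chr5:149006712-149007011, plus strand) is the promoter of highest value among those shown. Meg3 (chr12:109540746-109541045, plus strand) and Kcnq1ot1 (chr7:143296498-143296797, minus strand) are imprinted, and Xist (chrX:103483184-103483483, minus strand) is the RNA of the inactive X chromosome.
Snhg8: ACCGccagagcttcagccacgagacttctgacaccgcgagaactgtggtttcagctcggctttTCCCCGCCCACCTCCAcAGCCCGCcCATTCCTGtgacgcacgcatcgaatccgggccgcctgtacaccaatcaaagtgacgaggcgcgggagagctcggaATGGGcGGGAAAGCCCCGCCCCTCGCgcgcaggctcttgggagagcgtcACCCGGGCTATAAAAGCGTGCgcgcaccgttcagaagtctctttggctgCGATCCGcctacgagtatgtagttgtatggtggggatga
Snhg15: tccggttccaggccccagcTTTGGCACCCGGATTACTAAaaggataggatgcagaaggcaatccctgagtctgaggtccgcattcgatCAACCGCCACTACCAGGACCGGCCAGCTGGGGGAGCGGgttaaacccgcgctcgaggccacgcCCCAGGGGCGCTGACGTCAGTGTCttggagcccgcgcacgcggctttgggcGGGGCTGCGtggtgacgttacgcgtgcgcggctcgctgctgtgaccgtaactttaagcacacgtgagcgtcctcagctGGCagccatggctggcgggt
Malat1: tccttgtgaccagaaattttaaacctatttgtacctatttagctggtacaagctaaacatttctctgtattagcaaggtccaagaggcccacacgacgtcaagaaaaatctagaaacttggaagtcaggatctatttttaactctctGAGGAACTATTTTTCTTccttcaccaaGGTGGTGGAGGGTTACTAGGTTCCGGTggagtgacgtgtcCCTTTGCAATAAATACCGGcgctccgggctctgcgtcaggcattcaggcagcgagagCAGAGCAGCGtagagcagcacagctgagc
Gm15408: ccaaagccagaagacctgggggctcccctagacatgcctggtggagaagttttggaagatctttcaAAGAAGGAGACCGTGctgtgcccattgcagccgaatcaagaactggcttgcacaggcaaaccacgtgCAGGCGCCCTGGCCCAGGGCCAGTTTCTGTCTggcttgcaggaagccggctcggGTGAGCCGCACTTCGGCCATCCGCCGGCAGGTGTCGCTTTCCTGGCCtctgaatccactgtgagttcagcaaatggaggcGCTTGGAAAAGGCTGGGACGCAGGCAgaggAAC
Meg3: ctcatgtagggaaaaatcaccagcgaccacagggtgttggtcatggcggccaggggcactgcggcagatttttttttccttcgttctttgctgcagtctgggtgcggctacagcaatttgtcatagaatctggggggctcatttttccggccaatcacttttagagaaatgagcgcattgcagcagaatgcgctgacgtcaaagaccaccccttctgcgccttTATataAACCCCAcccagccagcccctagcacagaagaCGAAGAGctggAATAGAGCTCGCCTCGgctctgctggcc
Kcnq1ot1: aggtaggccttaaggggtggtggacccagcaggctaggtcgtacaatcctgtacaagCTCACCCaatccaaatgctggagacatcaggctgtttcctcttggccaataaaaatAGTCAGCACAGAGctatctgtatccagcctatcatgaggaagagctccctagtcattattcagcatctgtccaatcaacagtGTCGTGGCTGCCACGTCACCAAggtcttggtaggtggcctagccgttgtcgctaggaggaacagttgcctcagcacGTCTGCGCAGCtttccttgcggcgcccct
Xist: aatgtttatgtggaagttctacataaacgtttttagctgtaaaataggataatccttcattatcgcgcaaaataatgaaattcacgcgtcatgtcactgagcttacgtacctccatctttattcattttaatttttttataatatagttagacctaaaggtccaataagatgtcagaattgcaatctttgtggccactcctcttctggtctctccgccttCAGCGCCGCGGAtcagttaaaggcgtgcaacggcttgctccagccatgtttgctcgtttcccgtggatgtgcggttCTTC
The bases inside footprints of both libraries numbered 123 of 300 in Gm15408, 94 in Snhg15, 88 in Snhg8, 73 in Malat1, 53 in Kcnq1ot1, 33 in Meg3 and 16 in Xist. Snhg8 held 30 CpG dinucleotides and Snhg15 held 29, against 15 in Xist, 13 in Gm15408, 13 in Meg3, 10 in Malat1 and 9 in Kcnq1ot1. In Snhg8 4 copies of the word GGGCGG, the GC box bound by SP and KLF factors, began 184, 167, 85 and 72 bases before the start on one strand or the other. A TATAAA word on the gene strand began 30 bases before the start in Snhg8 and 25 bases before it in Meg3, and in Snhg8 all 6 of its letters are capitals. The cyclic AMP response element TGACGTCA was found in Snhg15, 88 bases before the start and inside a shared footprint, and in Meg3, 57 bases before the start and outside one. Of the 15 motif words searched, none was found in the Malat1 and Xist windows, which says only that those letters are not there. RefSeq promoter sequences were at hand for 512 of the 1051 genes by symbol, and Neat1, H19 and Pvt1 are among those without an entry.

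The open share of stand-alone lncRNA promoters was below that of other promoters and above that of genome positions over 5 kb from coding starts. Of the stand-alone genes, 15.4% had a peak in both libraries, against 54.6% of 2775 lncRNA genes with a start within 5 kb of a coding start and 66.7% of 21938 protein-coding genes. Of all genome positions over 5 kb from coding starts, 2.14% lay within 500 bp of a peak in both libraries. That share is over single positions of the whole genome, and the surroundings of these genes were not measured. A further 374 stand-alone genes had a promoter peak in 1 library only and 5403 had none. Females carry no Y chromosome, and 551 of the stand-alone genes lie on it with no open promoter among them; without these the share was 16.7%. Genes with more starts have more chances of a peak, and among genes with a single start the share was 12.2% for stand-alone lncRNA genes and 35.3% for coding genes. Counted by start, 1638 of 9730 stand-alone lncRNA starts (16.8%) and 53.5% of coding starts were open. By type, processed_transcript genes were open most often (34.9%), ahead of lincRNA genes (14.5%) and antisense genes (13.8%).

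The thresholds cut through a continuous range. The stand-alone genes nearest to the 5 kb bound were Gm26709, 5033 bp from the start of 4930447C04Rik with values of 0.443 in replicate 1 and 0.209 in replicate 2, and 1810026B05Rik, 5035 bp from Chd2 with values of 21.0 and 7.11. Just inside the bound and left out were AA465934, 4973 bp from Slfn14 (9.38 and 5.28), and Gm26841, 4853 bp from H13 (7.86 and 4.81). At the reach of 500 bp, 1700037C06Rik had its farther peak 499 bp from the start and Gm5118 494 bp, while A630001O12Rik and Gm12984 missed by having the nearest peak of 1 library 508 and 509 bp away. The miRNA cluster host Mir17hg missed in the same way: its promoter had a value of 3.03 in replicate 2, the highest among the genes open in 1 library, and the nearest peak of replicate 1 lay 519 bp away. Of the 374 genes open in 1 library, 57 had a peak of the other library within 1000 bp, and their median value was 0.405.

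The value of a promoter in a library is the highest deposited signal value among its promoter peaks, on a scale that the sources used here do not give. Since a peak was required, these values describe the chosen genes and test nothing. The median value was 1.20 in replicate 1 and 0.995 in replicate 2, which is 1.10 ± 0.149 (SD, n = 2 libraries), against library medians of 6.68 and 3.60 over the 14631 open coding promoters and 4.70 and 2.72 over the 1515 open lncRNA promoters within 5 kb of a coding start. As means of both libraries, 486 of the 1051 values were under 1 and 102 were over 5. Of open coding promoters 10.5% were under 1 and 51.3% over 5. Among single-start genes, where no choice between starts enters, the medians were 1.00 for stand-alone lncRNA genes and 2.94 for coding genes. Low values therefore prevailed among the stand-alone promoters, with a tail that reached the level of coding genes. Values of the libraries ranked the genes alike: across genes the Spearman rho was 0.95 (1051 genes, which share their 2 libraries and are not replicates).

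**Figure D1:**
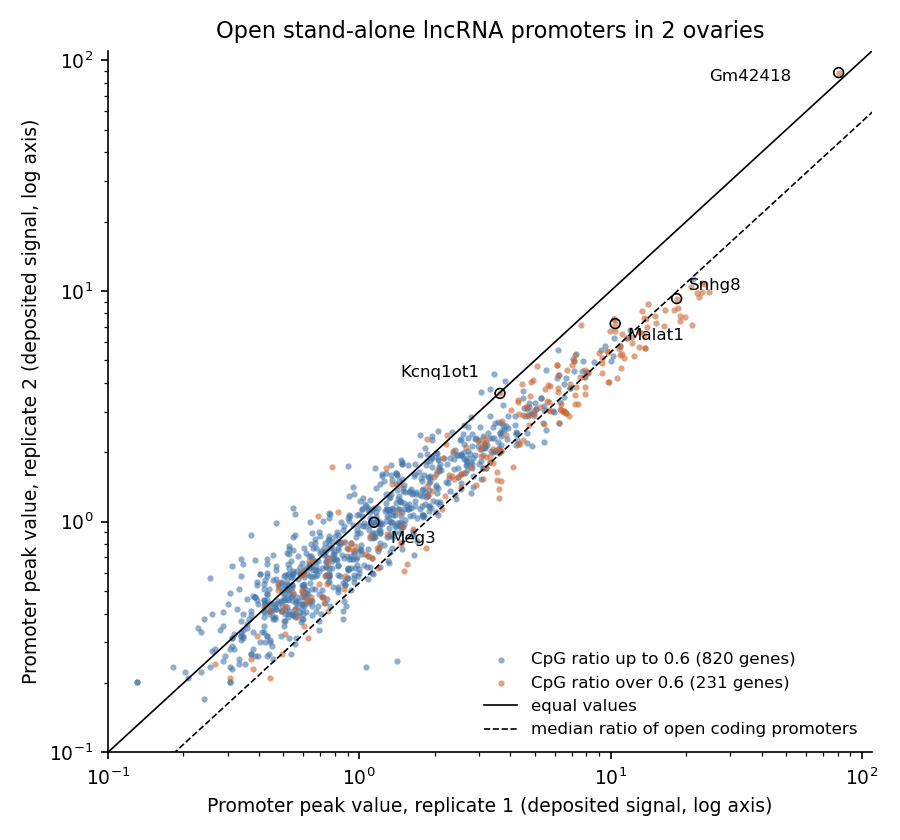
Value of each of the 1051 open stand-alone lncRNA promoters in replicate 1 (x axis) and replicate 2 (y axis), both the deposited signal on log axes, coloured by the observed over expected CpG ratio around the start; the solid line marks equal values and the dashed line the median ratio of open coding promoters. Promoters of high value lie along the dashed line, most of low value lie above it, and Gm42418 stands apart at 80.8 and 88.4.

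At the top of the range stood Gm42418, with values of 80.8 in replicate 1 and 88.4 in replicate 2. No other stand-alone promoter was above 24.7 in replicate 1 or 11.2 in replicate 2. Gm42418 lies within a copy of the ribosomal RNA repeat on chromosome 17 (39846958 to 39848788, plus strand), RefSeq lists the symbol as a pseudogene, and reads from the many ribosomal RNA copies elsewhere may be placed there, which was not tested. Gm26917 in the same repeat had no promoter peak. The promoters ranked after it were 1700096K18Rik (23.8 in replicate 1 and 10.8 in replicate 2), Tmem250-ps (24.7 and 9.93), Gm10010 (23.1 and 10.8), 9430037G07Rik (23.2 and 9.86) and Gm15408 (21.3 and 11.2). All of these but Gm15408 were rich in CpG. The remaining 4 of the 10 highest were 6720427I07Rik, 1700028E10Rik, Gm33195 and 1810026B05Rik, at 20.9 to 22.6 in replicate 1 and 7.11 to 10.4 in replicate 2. In 9 of these 10, Gm42418 excepted, the value of replicate 1 was the higher one. At the other end, 1700110I01Rik and Gm17188, a pair read from opposite strands of 1 site, had 0.130 and 0.203, and Gm43388, AC141633.1 and Gm11751 had means of 0.206 to 0.209.

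Hosts of snoRNAs, which release small guide RNAs of ribosome production from their introns, stood high. All 8 stand-alone Snhg genes were open in both libraries, and their median value was 7.23. In the annotation used, 2 of them (Snhg20 and Snhg7os) hold no snoRNA. Snhg8 had values of 18.3 in replicate 1 and 9.27 in replicate 2 (13.8 ± 6.40, SD, n = 2), Snhg15 had 16.5 and 8.30, and Snhg7os, which is read from the strand opposite to Snhg7, had 13.3 and 8.23. Snhg5 followed with 12.2 and 6.30. The lowest mean of the 8 was that of Snhg17, with 4.70 and 2.88, which is still above the median of all members in each library. The others, Snhg6, Snhg12 and Snhg20, lay between 4.66 and 7.20 in replicate 1. Over the whole annotation, 18 of 47 stand-alone genes with a snoRNA inside them were open (38.3%), with a median value of 4.78 and a range from 0.398 to 16.5. These 18 had a median CpG ratio of 0.79, against 0.36 over all 1051 promoters. Open stand-alone promoters with a ratio over 0.8 had a median value of 4.78, and the part of CpG content in the host values was not tested.

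Hosts of microRNAs (miRNAs) were also open more often than stand-alone genes in general, at lower values than snoRNA hosts. Of 82 stand-alone genes with an annotated miRNA inside them, 39 were open (47.6%), with a median of 2.24. The highest of them, 6720427I07Rik, had 22.6 in replicate 1 and 9.44 in replicate 2. Dleu2, which carries miR-15a and miR-16-1, had values of 13.7 and 5.64 at a site it shares with Gm27017 on the opposite strand. Mir670hg had 4.88 and 2.96, Mir99ahg had 4.57 and 2.89, and Mir155hg, the host of an immune-cell miRNA, had 1.20 and 0.779. Dnm3os, which carries miR-199a-2 and miR-214 and is known from mesenchymal cells, had 1.27 and 1.11. Carmn, known in smooth muscle as the host of miR-143 and miR-145, had 2.40 and 1.31 and has no miRNA inside it in this annotation, so it is not among the 39. The highest peaks of the libraries did not overlap at Mir155hg and Dnm3os, whose values are therefore from different sites. Host genes lay on both sides of the median of all 1051 promoters. Many hosts have several starts, and their shares are not adjusted for that. The 39 open miRNA hosts had a median CpG ratio of 0.53, and the part of CpG content in their share and values was not tested.

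The abundant nuclear RNAs had promoters of high value. Malat1, an RNA of nuclear speckles, had 10.4 in replicate 1 and 7.22 in replicate 2 (8.83 ± 2.27, SD, n = 2). Neat1, the scaffold of paraspeckles, whose loss impairs corpus luteum formation in mice, had 10.9 and 5.77 (8.34 ± 3.65, SD, n = 2). The order of these neighbours on chromosome 19 differed between the libraries, so they cannot be ranked. The highest peak of Neat1 is also that of Frmd8os on the opposite strand. In replicate 1 the nearest peak lay 303 bp from a GENCODE start of Neat1, while in replicate 2 a peak covered a start. Lncpint, a target of p53, had 6.37 and 3.05, and Pvt1, 50.6 kb from the Myc start, had 3.67 and 1.51.

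Among lncRNA genes of the X inactivation centre, the 4 listed (Xist, Tsix, Jpx and Ftx) were open, at different levels. Xist, which coats the inactive X chromosome, had 1.95 and 1.35 (1.65 ± 0.419, SD, n = 2). Ftx, an activator of Xist, was the highest with 9.81 and 5.43, and Jpx, another activator, had 2.36 and 2.03. Tsix, the antisense repressor of Xist, was the lowest with 0.593 and 0.504, at a start inside the transcribed region. The order Ftx, Jpx, Xist, Tsix held in both libraries. Firre, an X-linked RNA of nuclear organisation outside that centre, had 3.48 and 2.04. On the X chromosome 22 of 131 stand-alone genes were open (16.8%), against 16.7% on the autosomes.

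RNAs of imprinted domains, which are read from 1 parental allele, lay on both sides of the median of all 1051 promoters. Kcnq1ot1, the paternally expressed silencer inside Kcnq1, had 3.63 in replicate 1 and 3.60 in replicate 2 (3.62 ± 0.0248, SD, n = 2). Airn, the paternally expressed RNA that starts in an intron of Igf2r, had 2.23 and 1.77. The maternally expressed Meg3 had 1.15 and 0.995, and H19 had 0.860 and 0.543. In both libraries the paternally expressed pair had the higher values, and each value sums the signal of both alleles. Mirg, a later gene of the Meg3 domain, had no promoter peak.

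RNAs known from other tissues had values above the median, values below it or no peak. Bvht, described in heart development, was above it with 2.69 and 1.82, while Halr1, at the Hoxa cluster, was below it with 0.560 and 0.445. Rmst, known from neural cells, had 0.599 and 0.596, and Lncbate1, known from brown fat, had 0.970 and 0.687. Miat, Sox2ot and Hotair had no promoter peak in either library. Of 24 stand-alone Platr genes, a group named for their activity in pluripotent stem cells, 20 had no peak, 3 were open in 1 library and 1, Platr22, was open in both (0.782 and 0.674). The 2 remaining genes of the list, 2610035D17Rik (4.80 and 3.49) and 2610307P16Rik (0.873 and 0.962), lay on either side of the median. The list of well-studied genes was drawn up with earlier results of these data known, and it counts as a description. It was matched by symbol, and listed genes not found under their symbol, such as Chaserr and Oip5os1, are not counted.

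**Figure D2:**
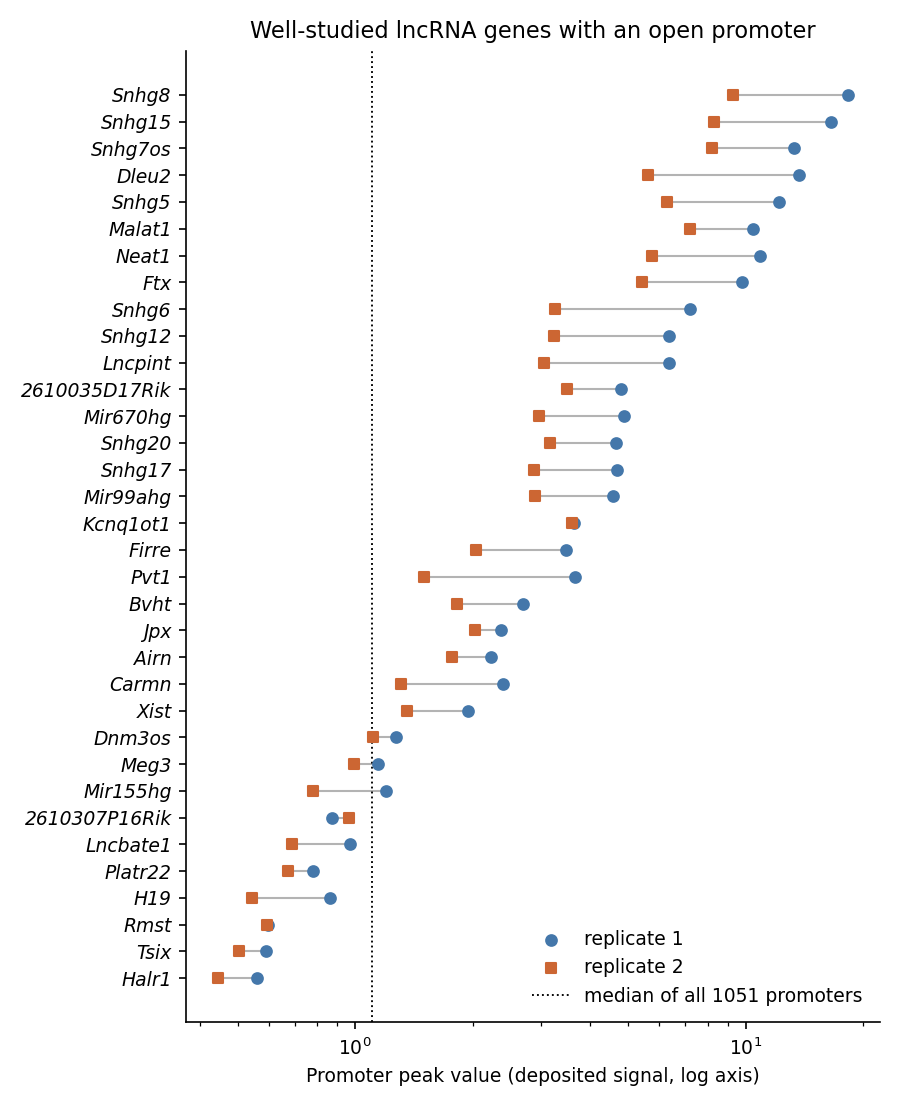
Promoter value (x axis, deposited signal, log axis) of the 34 stand-alone lncRNA genes of the well-studied list, matched by symbol, that were open in both libraries. Replicate 1 is shown as circles and replicate 2 as squares, joined by a line. The dotted line is the median of all 1051 promoters. Snhg8 to Ftx lie above 5 in both libraries, while H19, Rmst, Tsix and Halr1 lie below 1.

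The libraries differed more at coding promoters than at these. The log2 ratio of replicate 2 over replicate 1 had a median of -0.38 over the 1051 stand-alone promoters and -0.88 over the open coding promoters, a difference of 0.50. Replicate 2 had the higher value at 222 of 1051 stand-alone promoters (21.1%) and at 3.33% of open coding promoters. Over all 79447 peaks shared one to one between the libraries the median was -0.41, close to that of the stand-alone promoters. The ratio fell with GC content in both groups, with a Spearman rho of -0.48 across stand-alone and -0.56 across coding promoters. Set against coding promoters in the same 20% class of GC content, the difference was 0.22. The highest ratios, 1.07 to 1.24, belonged to 4930452L12Rik (0.371 and 0.877), Gm29318, Gm4211, Gm20559 and Gm39473, none of which was above 1.72 in either library. The lowest belonged to Gm34093 (1.41 and 0.249) and 6330411D24Rik (1.07 and 0.236), followed by 1810026B05Rik, 6530409C15Rik and 2900072N19Rik. At Gm4211, Gm34093 and 6330411D24Rik the highest peaks of the libraries did not overlap, so their ratios compare different sites. The replicate 2 peak of Gm4211 (1.72) also serves 9330111N05Rik, which had 4.10 in replicate 1. With 1 library per animal, a difference between animals and one between library preparations cannot be told apart.

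Footprints, which the rule did not use, were found at most of these promoters. A footprint counted when it lay wholly inside a promoter peak of its library, and as shared when it overlapped one of the other library by at least 1 base. At 733 of the 1051 promoters (69.7%) at least 1 footprint was shared, against 92.8% of open coding promoters, and 20 promoters had no footprint in either library. The share followed the value: it was 19.8% for values under 0.5, 54.8% from 0.5 to 1, 87.8% from 1 to 2, 96.8% from 2 to 5 and 99.0% above 5. At coding promoters the same classes gave 21.2%, 62.6%, 89.3%, 97.9% and 99.3%. By this share the groups were close at equal value except for a lower stand-alone share from 0.5 to 1. The mean number of shared footprints was lower at stand-alone promoters in each class from 0.5 up. It was 0.815, 1.78, 2.91 and 3.89, against 1.03, 2.24, 3.64 and 4.46 at coding promoters. These means are not adjusted for the number of promoter peaks. Across the 1051 genes the number of shared footprints and the value had a Spearman rho of 0.74, and both come from the same reads.

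The most shared footprints were found at Lncpint, with 14 footprints of replicate 1 overlapped in replicate 2, over several starts. Firre followed with 10, and 6720427I07Rik, A330023F24Rik and Lncppara, a gene 31.2 kb from the Ppara start, had 8 each. Malat1 and Snhg8 had 6, Meg3 had 4, Xist and Neat1 had 2 and Kcnq1ot1 had 1. These counts leave out footprints outside promoter peaks, which the capitals of the sequences above include. Tsix, Jpx and Dnm3os had footprints in both or 1 of the libraries and none that overlapped. Jpx, for one, had 2 footprints in replicate 1 and 15 in replicate 2. The number of footprints at a gene grew with the number of its promoter peaks, so counts of genes with many starts are not comparable with those of Xist or Kcnq1ot1.

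Base composition differed between promoters with and without a peak. The stand-alone genes compared here keep the 551 of chromosome Y, none of them open. Their part in the differences was not tested. The CpG ratio is the number of CpG dinucleotides over that expected from the C and G content, within 250 bp of the start nearest to the peak. Its median was 0.36 at the open stand-alone promoters, 0.19 at the stand-alone promoters without a peak and 0.79 at open coding promoters. Single-start genes, whose window cannot follow the peak, gave 0.33, 0.20 and 0.73. The share open rose from 6.42% (199 of 3102 genes) at a ratio of up to 0.2 to 14.8%, 31.3%, 50.8% and 77.6% (111 of 143) in the classes from 0.2, 0.4, 0.6 and 0.8 upwards. Coding genes rose from 7.89% to 98.0% over the same classes. In the 4 classes above 0.2 the stand-alone share was the lower one, as it was among single-start genes, where 67.5% of stand-alone and 91.2% of coding genes in the class above 0.8 were open.

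The value followed CpG content too. Its median was 0.705 in the lowest and 4.78 in the highest class, against 0.951 and 6.94 at coding promoters, and across the 1051 genes the Spearman rho of value and CpG ratio was 0.41. Of the 1051 open promoters, 55.3% had a ratio up to 0.4, against 9.48% of the open coding promoters. Open stand-alone promoters thus lay mostly outside CpG islands, while those of the highest value had the composition of coding promoters. Sequence in lower case in the reference, which masks repeats, covered a median of 8.58% of the window at open promoters and 17.4% at promoters without a peak. Of the latter 23.8% lay mostly in such sequence, against 1.52% of the former. The kinds of repeat were not told apart, and the part of read alignment in repeats was not tested. Nor was the part of the chromosome Y genes, which are kept here too.

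**Figure D3:**
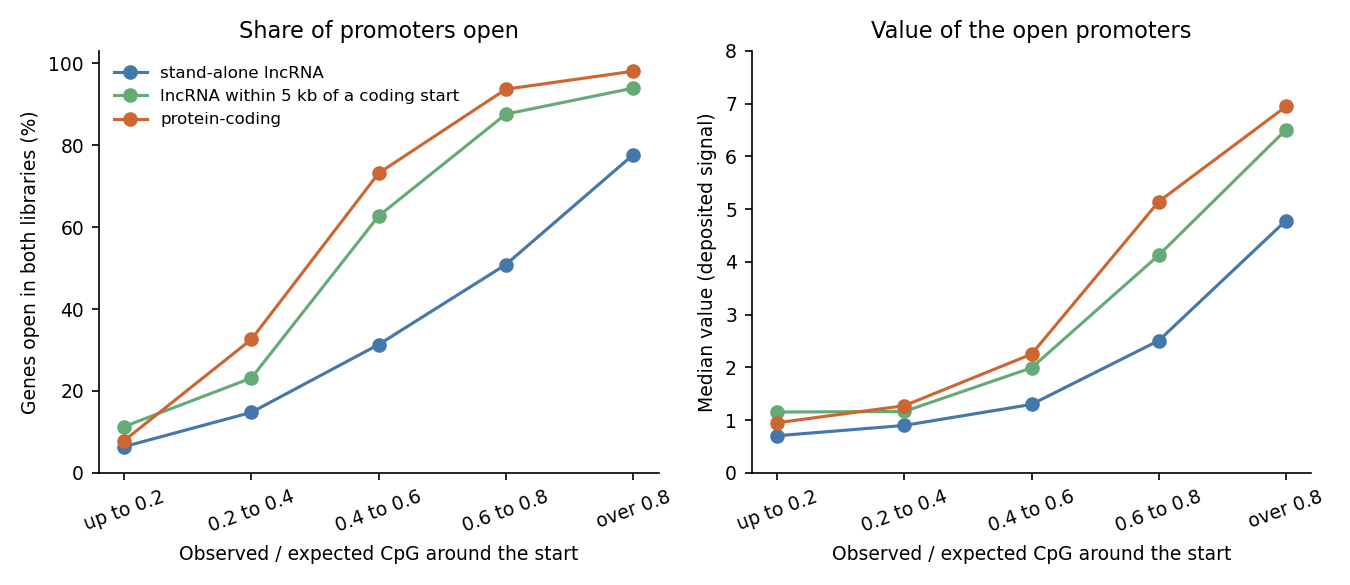
Left, share of genes with a promoter peak in both libraries (y axis, percent) by class of observed over expected CpG (x axis); right, median value of the open promoters (y axis, deposited signal), for stand-alone lncRNA genes, lncRNA genes within 5 kb of a coding start and protein-coding genes. All 3 groups rise with CpG content, from 6.42% to 77.6% open for stand-alone lncRNA genes and from 7.89% to 98.0% for coding genes.

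Motif words were counted within 250 bp of the start on both strands as plain letters, with no scoring, and a match is not a binding site. No word contains another, though neighbouring matches can overlap. All motif counts keep the stand-alone genes of chromosome Y, none of them open, and their part in the shares was not tested. The GC box (GGGCGG) was found at 33.0% of open stand-alone promoters, 7.96% of those without a peak and 78.3% of open coding promoters. The ETS word (CCGGAAG) was at 9.61%, 3.35% and 21.4%, and the core of the CTCF motif (CNAGGNGGC) at 12.5%, 5.00% and 21.6%. Over all promoters, the open stand-alone ones lay between the other groups for these 3 words. Among promoters of a CpG ratio up to 0.4 alone, the GC box was at 93 of 581 open stand-alone promoters and 316 of 4812 without a peak (6.57%), beside 32.2% of open coding promoters. The CTCF core was at 10.5%, 4.78% and 13.7% there and the ETS word at 7.06%, 2.56% and 6.27%, so the stand-alone share of the ETS word was not below that of coding promoters. The CRE word (TGACGTCA) was at 1.90% of open stand-alone promoters, 0.648% of those without a peak and 3.75% of open coding promoters. The NRF1 word (GCGCATGCG) was at 1.14%, 0.278% and 3.96% of these groups in turn.

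Words without a CG showed other orders. The AP-1 word (TGANTCA) was at 15.2% of open stand-alone promoters, 14.9% of those without a peak and 6.11% of open coding promoters. The word of NR5A1 and NR5A2, regulators of steroid-producing cells, was searched as CAAGGTCA and also as CAAGGCCA and was at 9.13%, 8.68% and 4.67%, and the forkhead word (TGTTTAC) at 7.99%, 6.74% and 2.99%. Among promoters of a CpG ratio up to 0.4 alone, the forkhead word was at 10.2% of open stand-alone promoters, 6.07% of those without a peak and 5.62% of open coding promoters. There the NR5A word was at 10.8%, 9.21% and 9.52% of these groups in turn, and the AP-1 word at 17.6%, 15.2% and 12.9%. Words for GATA factors (AGATAA) and for RUNX factors (TGTGGT) were less frequent at open promoters than at those without a peak, at 18.5% against 25.9% and 27.4% against 37.2%. The CCAAT box (CCAATCA or CCAATGA) was at 13.6% of open stand-alone promoters, 14.5% of those without a peak and 15.9% of open coding promoters. For the TEAD word (GGAATG) these shares were 26.1%, 26.7% and 16.7%. The E-box (CACGTG), which holds a CG, was at 11.7%, 6.89% and 13.2%, the order of the GC box. TATAAA in the 50 bp before the start was rare in every group. It was at 1.71% of open stand-alone, 2.41% of those without a peak and 1.24% of open coding promoters. The YY1 word (AAGATGGCG), which also holds a CG, was at 0.381%, 0.907% and 4.50% of these groups in turn. It was thus less frequent at open stand-alone promoters than at those without a peak.

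Footprints touched some of these words. Of promoters with a GC box, 32.0% had a match touched by at least 1 base of a shared footprint, against 58.5% of such open coding promoters. Words were sought within 250 bp of the start, but footprints only inside promoter peaks. Those peaks covered the start in both libraries at 44.7% of stand-alone and 82.3% of open coding genes, so the groups are not like for like. NRF1 words were touched at 9 of the 12 stand-alone promoters that held one and CRE words at 9 of 20 (45.0%). CTCF core, E-box and ETS words were touched at 19.1%, 18.7% and 17.8% of the promoters that held them. The shares for NR5A, AP-1, TEAD, RUNX, forkhead and GATA words were 9.38%, 6.88%, 6.93%, 3.12%, 2.38% and 1.55%. The same order at the ends, NRF1 highest and GATA lowest, was seen at coding promoters, with 78.6% and 3.71%.

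**Figure D4:**
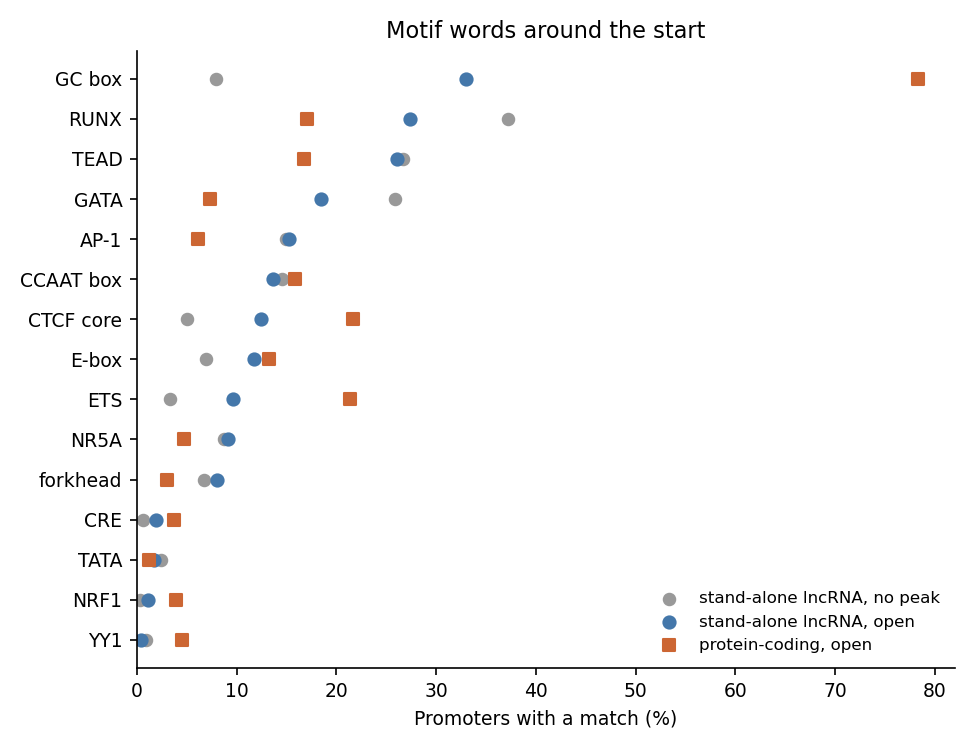
Share of promoters (x axis, percent) with each of the 15 motif words (y axis) within 250 bp of the start, or within the 50 bp before it for TATA, for open stand-alone lncRNA promoters, stand-alone promoters without a peak and open coding promoters. The GC box differs most, at 33.0%, 7.96% and 78.3%.

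The open promoters lay somewhat closer to coding genes than those without a peak. The median distance to the nearest coding start was 39.2 kb for the 1051 open genes and 62.5 kb for the 5403 genes without a peak. The share open fell from 19.6% at 5 to 10 kb to 10.8% at 100 to 500 kb and 5.98% beyond 500 kb. Their median values fell along, from 1.45 to 0.862 and 0.563. The nearest coding gene was itself open for 83.1% of the open genes and 71.8% of those without a peak. Stand-alone genes were open in 17.2% of cases beside an open coding gene and in 10.1% beside another. The distances and shares here keep the 551 stand-alone genes of chromosome Y, where no coding promoter was open either. All of these lie beside a coding gene that was not open, which lowers both the 71.8% and the 10.1%. How much of either difference remains without them was not tested. Across the 873 pairs of open promoters the Spearman rho of their values was 0.06. For lncRNA genes within 5 kb of a coding start it was 0.74 over 1461 pairs, many of which share a peak.

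The farthest member was C130073E24Rik, 2073 kb from the start of Tenm3, with values of 0.339 in replicate 1 and 0.334 in replicate 2. Gm13470, 1325 kb from Zeb2, had 1.17 and 1.41, and Gm40864, Gm29318 and Gm40604 had means of 0.258 to 0.412 at 999.8 to 1157 kb. These distances are to GENCODE coding starts. In RefSeq a coding start lies 85 bp from Gm40864, which RefSeq itself lists as protein-coding, and 1394173 bp from C130073E24Rik. Distance and gene density go together, and the share of each in these figures was not tested. Of the 1051 starts, 155 lay inside the body of a coding gene and 29 inside one of its exons.

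**Figure D5:**
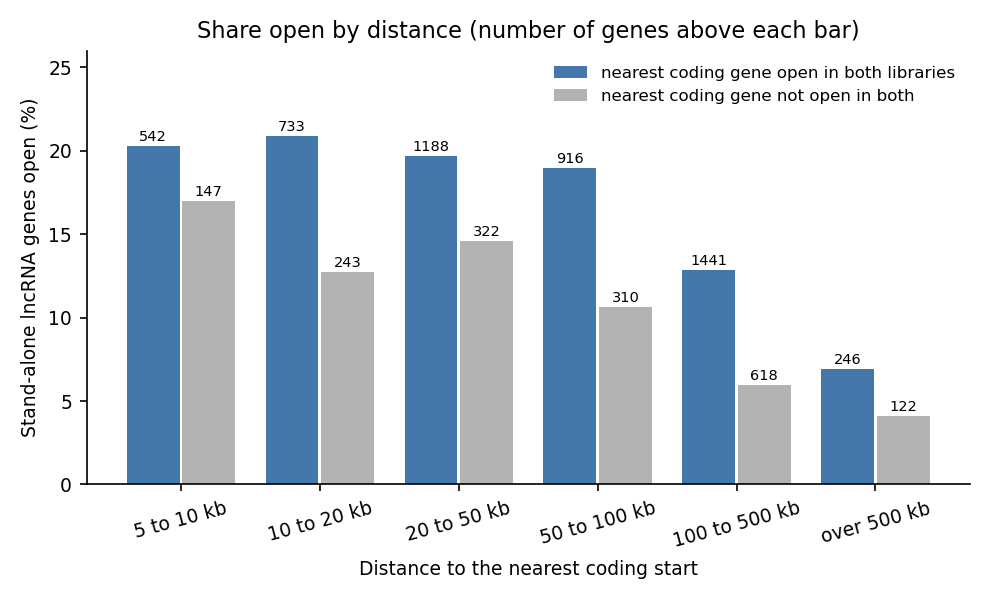
Share of stand-alone lncRNA genes open in both libraries (y axis, percent) by distance to the nearest coding start (x axis), for genes whose nearest coding gene was open in both libraries and for the others, with the number of genes above each bar. Both shares fall beyond 100 kb, to 6.91% and 4.10% over 500 kb. The 551 genes of chromosome Y, none of them open, are all counted among the others.

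Coding genes of ovarian cell types had open stand-alone lncRNA promoters beside them. Of 138 stand-alone genes whose nearest coding gene is on 1 of 8 lists of ovarian and other tissue genes, 34 were open (24.6%), beside 15.4% of all stand-alone genes. By list, the counts were 14 of 66 beside gonadal regulators, 8 of 20 beside theca, steroid and luteal genes, 4 of 16 beside granulosa genes and 3 of 10 beside genes of stroma, muscle and vessel. They were 2 of 13 beside genes of the response to luteinising hormone, 2 of 7 beside immune and blood genes, 1 of 7 beside oocyte genes and 0 of 1 beside genes of surface epithelium and oviduct. Many of these coding genes lie in open surroundings, the lists overlap and were chosen with earlier results known, and the counts are too small to set one list against another. The median value of the 34 was 0.730, below that of all 1051.

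Single members of these lists were as follows. Gm13003, 112 kb from Wnt4, a signal that directs ovarian development, had the highest value of them with 4.53 in replicate 1 and 3.11 in replicate 2. Gm44946 and Gm29683, 9.43 and 17.4 kb from Nr2f2, the transcription factor of ovarian stroma and theca, had 3.74 and 2.64, and 1.51 and 0.975. Gm36595 and 4930452L12Rik lie 52.9 and 58.5 kb from Gja1, the main gap junction gene of granulosa cells, and had 1.07 and 1.17, and 0.371 and 0.877, so that replicate 2 was higher at both. Beside Figla, an oocyte transcription factor whose own promoter had no peak, 4930553P18Rik had 2.55 and 1.47 at 11.8 kb. Gm4258 lies 217 kb from Ptprc, the leukocyte gene, and had 3.43 and 2.30. Zfp469 near Zfpm1, Gm17276 near Notch3, Gm28865 near Kdr and Gm19385 near Ctnnb1 had means of 2.56, 1.94, 1.41 and 1.18. No expression was measured, and whether any of these sites acts on its neighbour was not tested.

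The annotation sets limits to what stand-alone means. The 1051 genes occupied 1012 distinct sites, since 39 sites each served a pair of genes, in 32 cases on opposite strands. The highest peaks of both libraries overlapped at 998 of the 1051 genes. The start lay inside a peak of both libraries at 470 genes (44.7%), against 82.3% of open coding genes, and the peak centre lay upstream of the start at 61.0%. By symbol, 642 of the genes were found in RefSeq, which lists 605 of them as lncRNA and 26 as protein-coding, Tmem250-ps, Zfp469 and Gm40864 among them. A RefSeq coding start lay within 5 kb of 72 of the 1051. A peak beside a start does not show that the gene is transcribed, and no RNA or histone mark was analysed here.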

How the data were processed

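DNase-seq was analysed in 2 ovary libraries, replicates 1 and 2, of 1 animal each. Peaks and footprints were called separately for each library, on mm10, per the labels. The authors deposited 109169 peaks for replicate 1 and 114462 for replicate 2 in the longer of their lists, which was used here, each with a signal in column 7 on an unstated scale. Footprints (301406 and 294269) carry a deposited score of 0.01 in every line, so their positions alone were used. The sources used here do not name the aligner or the callers, and read depth is unknown.

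Starts were taken from GENCODE on GRCm38, the same build, and sequence from that reference and RefSeq GRCm38.p6. Distances run from the start to the nearest base of a peak. The SD is over both libraries. Overlaps, medians and motif matches were computed with Python 3.11.15, numpy 2.4.6, pandas 2.3.3, scipy 1.17.1 and pysam 0.24.0, and plots with matplotlib 3.10.9. In a check on simulated data, peaks were planted at 200 stand-alone genes, the state of all 200 was recovered, and so was the library ratio of the 143 called open. The members, lists and rules were chosen with earlier results of these data known. Genes named were the 10 highest and 5 lowest values, the 5 highest and 5 lowest library ratios, the 5 with most shared footprints, the 5 farthest from coding starts, listed well-studied lncRNAs, up to 10 members beside genes of the tissue lists, and those nearest to each threshold. Mir17hg, Gm27017, Frmd8os and 9330111N05Rik, and the genes without a peak, were named after their values were seen.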

Additional observations from a re-analysis of the deposited data

How the results depend on the processing

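The share of stand-alone lncRNA genes open in both libraries was 15.4%. It was 12.7% with a reach of 250 bp and 18.6% with 1000 bp, 15.8% for genes over 2 kb and 14.9% for genes over 10 kb from coding starts, and 14.8% with RefSeq coding starts added. It was 10.6% with the shorter peak lists, 9.20% with peaks above the library's median value, 14.4% for the most upstream start, 14.5% for lincRNA genes alone and 16.7% without chromosome Y. A single library gave 17.9% to 18.3%. In each of these settings the share was far below the 66.7% of coding genes at the main setting.

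The median value of the members was 1.66 for those in the shorter lists, and 0.995 to 1.20 in single libraries. The median library ratio relative to coding promoters, 0.50, became 0.032 relative to all one-to-one shared peaks, 0.22 against coding promoters of the same 10% class of value and 0.22 against the same 20% class of GC content. Shared footprints were found at 56.6% of members when searched within 250 bp of a start, and single libraries held a footprint at 90.0% to 93.8%. The median CpG ratio was 0.34 within 500 bp and 0.38 at the peak centre, and the median distance was 27.1 kb to the nearest coding gene body. Within 75 bp of the peak centre, a window that covers fewer bases, the GC box was at 22.3% of members and the YY1 word was unchanged at 0.381%. The ratio was 0.50 for the members whose highest peaks overlap. The alternatives on chromosome Y, RefSeq starts, GC classes and overlapping peaks were chosen after seeing the data. No paired analysis was possible because there is 1 group. The depth limits which weak promoters reach a peak, and its effect was not tested.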
